A study of Homo sapiens with 39 samples.

Results

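U937 cells cultured for 72 h with the oligonucleotide Pu9- were compared with untreated U937 cells of the same time, on 6 of the 39 Affymetrix 3' expression arrays of the study. U937 is an established human line from a histiocytic lymphoma with myeloid, monocytic features. The labels give 3 arrays for Pu9- at 72 h and 3 for untreated cells at 72 h, and all 18132 genes with a probe set of their own were examined. Cells in exponential growth received 10 µM Pu9- in RPMI medium with fetal bovine serum and antibiotics, and the untreated cells were grown in the same medium without an oligonucleotide. The same study treated U937 with Pu27 and with Pu5- at the same dose and times, 3 arrays each, and collected untreated and treated cells at 24 and 48 h as well. No group received an unrelated control oligonucleotide, so an effect of Pu9- and an effect of taking up any such DNA cannot be told apart here. All arrays come from a single cell line, and the labels name 3 repeat experiments without saying which replicate number belongs to which. The p-values therefore reflect only how these arrays vary, which may be technical.

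The oligonucleotides are guanine-rich DNA strands related to a promoter element of the MYC oncogene. Single DNA strands with several runs of guanines can fold into a G-quadruplex, a stack of guanine tetrads held by hydrogen bonds and a central cation. The element upstream of MYC is a standard example: its G-rich strand can take this fold, and folding there is known to reduce MYC transcription. Pu9- has 20 bases, 15 of them guanines, with 4 runs of at least 3 guanines, and it equals bases 7 to 26 of Pu27. Pu27 has 27 bases, 20 guanines and 5 such runs, whereas Pu5- has 42 bases, 31 guanines and 7 such runs.

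The values are log2 expression levels after robust multi-array averaging, and a difference of 1 on that scale is a 2-fold change. Array medians ran from 5.82 to 5.94 over the 39 arrays. The 18 measured myeloid markers kept a summed log2 level of 15.21 to 15.38 in the Pu9- arrays and 15.30 to 15.36 in the untreated arrays. Of the markers of T cells (9), B cells (9), erythroid (6), epithelial (11) and fibroblast (12) cells, none passed the test described next. The 9 T cell markers summed to 8.11 to 8.21 with Pu9- and 8.18 to 8.23 without, and the 9 B cell markers to 9.90 to 9.97 and 10.002 to 10.198.

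The 3 Pu9- arrays did not lie equally far from the untreated arrays. Distance was taken as the root mean square (RMS) of the log2 differences over all genes. Pu9- replicate 1 was 0.191, 0.194 and 0.238 from untreated replicates 1, 2 and 3, and the untreated arrays were 0.190 to 0.229 from each other. Pu9- replicate 2 was 0.265 to 0.304 away and replicate 3 was 0.253 to 0.284 away. The first Pu9- array was thus about as near to the untreated arrays as these were to each other, and the other 2 were farther than any untreated pair. Within the Pu9- group, replicates 2 and 3 differed by 0.208, and replicate 1 differed from them by 0.270 and 0.265. Pu5- at 72 h had a similar order. Its replicate 1 was 0.201, 0.207 and 0.252 from the untreated arrays, replicate 2 was 0.237 to 0.271 away and replicate 3 was 0.224 to 0.251 away. In Pu27 replicate 1 was the farthest, at 0.302 to 0.319. The deviations of Pu9- and Pu5- replicate 1 from their group means correlated over genes (r = 0.576). The labels give no reason to set Pu9- replicate 1 apart, and the results below hold all 3 arrays unless said otherwise. The log2 gap between the 3' and 5' probe sets of ACTB, a measure of RNA integrity, ran from 1.99 to 2.32 in the Pu9- arrays, with the highest value in replicate 3, and from 1.97 to 2.11 in the untreated arrays. With that gap as a covariate 152 genes passed, against 174 below.

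**Figure D1:**
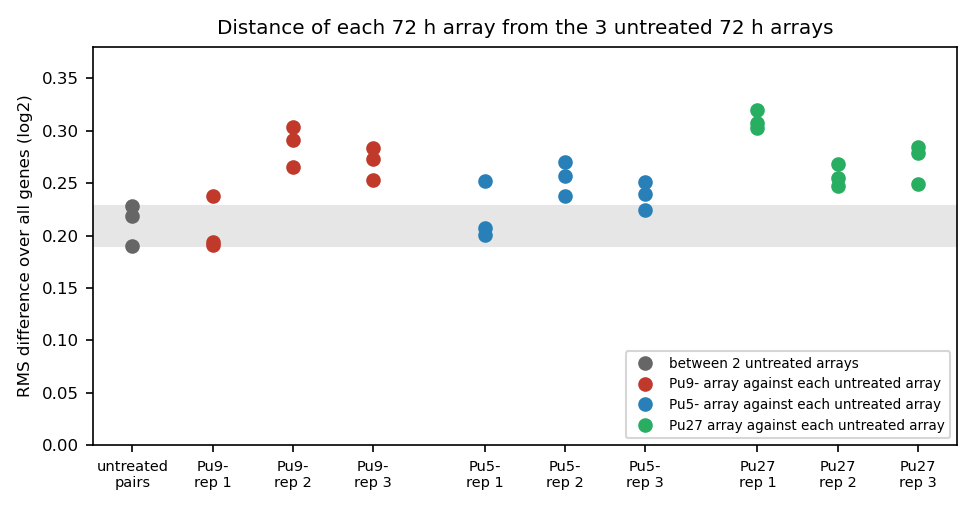
Distance of each 72 h array from the 3 untreated 72 h arrays, as the root mean square of the log2 difference over 18132 genes (vertical axis); each point is a pair of arrays, and the grey band spans the 3 untreated pairs. Pu9- replicate 1 has points at 0.191 and 0.194 within the band, and Pu9- replicates 2 and 3 lie between 0.253 and 0.304, above it. Pu5- replicate 1 has points at 0.201 and 0.207 within the band.

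Expression at 72 h moved in both directions with Pu9-. A total of 174 of 18132 genes passed limma's test at an adjusted p of 0.05 (0.96%), 82 of them higher with Pu9- (0.452%) and 92 lower (0.507%). In the probe set kept for each gene the falls were the larger changes. Among the genes that passed, 6 fell at least 2-fold (0.0331% of genes) and none rose that far. Some probe sets that were not kept went past 2-fold, in both directions. The median change of the genes that passed was 0.51 among the rises and -0.62 among the falls, and over all genes it was -0.01. The arrays of the groups did not overlap for 160 of the 174 genes, against 14.4% of all genes. The sign was the same in all 3 pairs of equal replicate number for 173 of the 174. Both counts follow largely from choosing the genes by a test on these same arrays and are no further support. With the arrays shifted to a common median, 102 genes rose and 70 fell, so the split between the directions depends on the scaling.

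The size of the list depended on the replicates and on the fit. Without Pu9- replicate 1 the count was 1200, without replicate 2 it was 4 and without replicate 3 it was 16. Leaving out untreated replicate 1 gave 64 genes and leaving out untreated replicate 3 gave 23. Fits on the 6 arrays alone, or on the 12 arrays of 72 h, called 0 genes, with 1879 and 1925 at an unadjusted p under 0.05 against 2347 in the fit over all arrays. The 72 h arrays bear out the replicate number as a pairing, and the Pu9- and untreated arrays of 24 h do not. With that number as a block, the fit over all arrays called 459 genes, 233 higher and 226 lower, including all 174. The same block fitted on the 6 arrays called 3 genes, 1 of them among the 174. Calls given below as passing with the replicate block are those of the fit over all arrays, and on the 6 arrays only MMP9 among them passed. In every fit listed here each of the 174 kept its sign. Fits on fewer groups or with the block leave each change as it was, so the sign could not turn there. Where the groups did not overlap, leaving out 1 array could not turn it either.

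**Figure D2:**
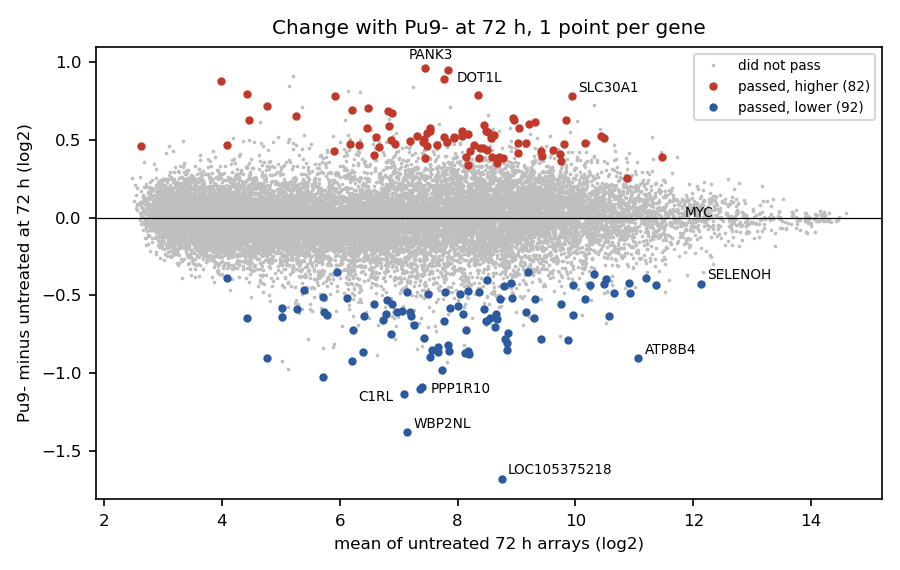
Change with Pu9- at 72 h (vertical axis, log2, Pu9- minus untreated) against the mean untreated level (horizontal axis, log2), with 1 point per gene, red for the 82 genes that passed and were higher and blue for the 92 that passed and were lower. Among the genes that passed, the falls reach -1.68 and the rises stop at 0.97.

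Most of the 174 genes followed the order of the arrays over all genes. In 71 of the 82 rises and 86 of the 92 falls, Pu9- replicate 1 was the array nearest to the untreated mean. The median difference from the untreated mean of the rising genes was 0.28 in replicate 1, 0.67 in replicate 2 and 0.54 in replicate 3; for the falling genes it was -0.26, -0.86 and -0.74. In 114 of the 174 genes the change in replicate 1 was under 50% of the mean change of replicates 2 and 3, and in 28 genes, 17 rises and 11 falls, it was at least 75% of it. Among those 28 were PTX3, CCDC80, FRMD6, MCM10, CDC6, DTL, PJVK and SELENOH, described next with the others.

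The largest fall was that of LOC105375218, an uncharacterized locus on chromosome 7. Its log2 level was 8.93, 8.68 and 8.65 in untreated replicates 1, 2 and 3 and 8.51, 6.27 and 6.44 with Pu9-. The change was -1.68 ± 0.41 (limma, 3 arrays a group, adjusted p = 0.036). Nearly all of that change was in replicates 2 and 3. Here and below ± is limma's SE, from a spread pooled over all 13 groups. For this gene the pooled spread is below that of the Pu9- arrays, whose standard deviation was 1.25 (0.15 in the untreated arrays). The same limit holds for other genes with a split Pu9- group. WBP2NL, a sperm protein with a WW-domain binding motif, stood at 6.98 to 7.43 in the untreated arrays and at 6.07, 5.35 and 5.87 with Pu9-, a change of -1.38 ± 0.21 (adjusted p = 0.00095 by limma). All 3 Pu9- arrays were low, and WBP2NL passed in 16 of 20 alternative fits. A second probe set of that gene fell by less, at -0.28.

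C1RL, a serine protease related to complement C1r, was 7.13, 7.14 and 7.01 without and 6.85, 5.47 and 5.55 with Pu9- (-1.14 ± 0.20, limma adjusted p = 0.0044). PPP1R10, the nuclear targeting subunit of protein phosphatase 1 known as PNUTS, read 7.54, 7.04 and 7.53 in untreated cells and 6.94, 5.62 and 6.24 in treated cells (-1.10 ± 0.23, limma adjusted p = 0.013), and its second probe set changed by -0.91. In both genes replicate 1 was the least changed and still lay below every untreated array. CACNA2D4, an auxiliary subunit of voltage-gated calcium channels, was 7.41, 7.40 and 7.36 against 6.76, 5.97 and 6.17 with Pu9- (-1.09 ± 0.19, limma adjusted p = 0.0036). The change over its 5 other probe sets ran from -0.73 to 0.01. KANK4, of a family of ankyrin repeat proteins, was the last gene that passed with a 2-fold fall. It had 5.85, 5.68 and 5.60 against 5.24, 4.41 and 4.41 (-1.03 ± 0.21, limma adjusted p = 0.011), and its second probe set changed by -0.32. All 6 genes were also lower with Pu27 and with Pu5-, against the same untreated arrays. In the order given, the changes were -1.57, -1.17, -0.73, -0.97, -0.59 and -0.52 with Pu27, where all but CACNA2D4 and KANK4 passed. With Pu5- they were -1.12, -0.85, -0.92, -1.05, -1.01 and -0.91, and all but LOC105375218 passed. None of the 6 passed between Pu9- and Pu27 or between Pu9- and Pu5-.

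ATP8B4, of the family of lipid flippases that move phospholipids across membranes, had the smallest adjusted p of all genes: 11.05, 11.11 and 11.04 untreated and 10.51, 9.97 and 10.01 with Pu9- (-0.90 ± 0.12, limma adjusted p = 0.00043). It is well expressed in U937, and its 3 Pu9- arrays lay far below the untreated ones. HELQ, a helicase in the repair of blocked replication forks, went from 7.60, 7.62 and 7.49 to 7.16, 6.38 and 6.62 (-0.85 ± 0.14, limma adjusted p = 0.0022), with -0.14 in a second probe set. NABP1, a protein that binds single-stranded DNA in the damage response, fell by 0.88 ± 0.17 on the log2 scale (limma adjusted p = 0.0091), and its 4 other probe sets changed by -1.18 to -0.22.

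The remaining named falls were KRCC1 at -0.98, PJVK (pejvakin, a gasdermin family member) at -0.92, C11orf21 at -0.89, the zinc finger gene ZNF302 at -0.87, CLHC1, the noncoding RNA LINC00205 and the NOD-like receptor NLRC3 at -0.86 each, and the zinc finger gene ZNF655 at -0.79. Their limma adjusted p ran from 0.0036 to 0.030. In ZNF302 the groups overlapped, because replicate 1 was within the untreated range. Other probe sets of KRCC1 (-1.12) and CLHC1 (-0.81) changed by similar amounts, and that of LINC00205 by -0.13.

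PANK3, a pantothenate kinase that carries out the first step of coenzyme A synthesis, showed the largest rise: 7.35, 7.69 and 7.30 in untreated cells and 7.74, 8.98 and 8.52 with Pu9- (0.97 ± 0.23, limma adjusted p = 0.027). Its 2 other probe sets rose by 0.58 and 1.09. DOT1L, a histone H3 lysine methyltransferase, went from 7.84, 7.86 and 7.80 to 8.12, 9.14 and 9.11 (0.95 ± 0.19, limma adjusted p = 0.011), and its second probe set changed by 0.21. AVL9 was 7.84, 7.82 and 7.62 and then 8.05, 9.16 and 8.76 (0.89 ± 0.18, limma adjusted p = 0.0091). All 3 genes were high in replicates 2 and 3 and only slightly above the untreated arrays in replicate 1.

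SLC30A1 (ZnT1), the plasma membrane zinc exporter, was 9.83, 10.06 and 9.94 untreated and 10.10, 11.11 and 10.95 with Pu9- (0.78 ± 0.16, limma adjusted p = 0.011); a second probe set rose by 0.96. Its replicate 1 value of 10.10 was just above the highest untreated value of 10.06. PIK3IP1, an inhibitor of phosphoinositide 3-kinase, went from 8.27, 8.43 and 8.33 to 8.58, 9.42 and 9.41 (0.79 ± 0.17, limma adjusted p = 0.017). ERRFI1, a feedback inhibitor of the EGF receptor also called MIG6, went from 6.76, 6.86 and 6.87 to 7.16, 7.69 and 7.68 (0.68 ± 0.11, limma adjusted p = 0.0023). PIM1, a serine/threonine kinase that promotes survival, stood at 8.92, 8.94 and 8.98 against 9.21, 9.82 and 9.73 (0.64 ± 0.14, limma adjusted p = 0.016), and 3 other probe sets rose by 0.66 to 0.78.

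PTX3, a pentraxin of innate immunity, was 6.95, 6.95 and 6.76 in untreated cells and 7.67, 7.64 and 7.37 with Pu9- (0.67 ± 0.13, limma adjusted p = 0.0091). In PTX3 the first replicate changed as much as the others. PLAU, the urokinase plasminogen activator, went from 8.91 to 8.96 in untreated replicates 3 and 1, with replicate 2 just above them, to 9.23, 9.85 and 9.68 (0.63 ± 0.13, limma adjusted p = 0.0095). CCDC80, an extracellular matrix protein, went from 5.51, 5.20 and 5.07 to 5.99, 5.91 and 5.85 (0.66 ± 0.16, limma adjusted p = 0.032), and its 5 other probe sets changed by -0.07 to 0.35.

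The smallest adjusted p among the rises belonged to FBXO45, a subunit of a ubiquitin ligase, with 9.17, 9.19 and 9.14 against 9.49, 9.80 and 9.66 (0.48 ± 0.07, limma adjusted p = 0.00082) and 0.56 and 0.57 in its 2 other probe sets. PRPS1, which makes phosphoribosyl pyrophosphate for nucleotide synthesis, went from 10.56, 10.56 and 10.33 to 10.88, 11.09 and 11.01 (0.51 ± 0.09, limma adjusted p = 0.0046). PPAT, the enzyme that commits this precursor to purine synthesis, rose by 0.40 ± 0.08 (limma adjusted p = 0.011). Further named rises were SAMD8 (a sphingomyelin synthase relative) at 0.80, GNPDA2 at 0.78, FRMD6 at 0.72, OSBPL11 (an oxysterol-binding protein relative) at 0.70, GRAMD1B (a sterol transfer protein) at 0.69 and LETM1 (a mitochondrial inner membrane protein) at 0.47. LETM1 rested on a single probe set, since 3 others changed by -0.06 to 0.09. Other probe sets also rose by less in AVL9 (0.12), FRMD6 (0.11), GRAMD1B (0.27 and 0.28) and OSBPL11 (0.33). The same held for GNPDA2 (0.39 and 0.52) and PIK3IP1 (0.10 to 0.53 over 7 of them). None of these other probe sets passed when every probe set was tested.

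**Figure D3:**
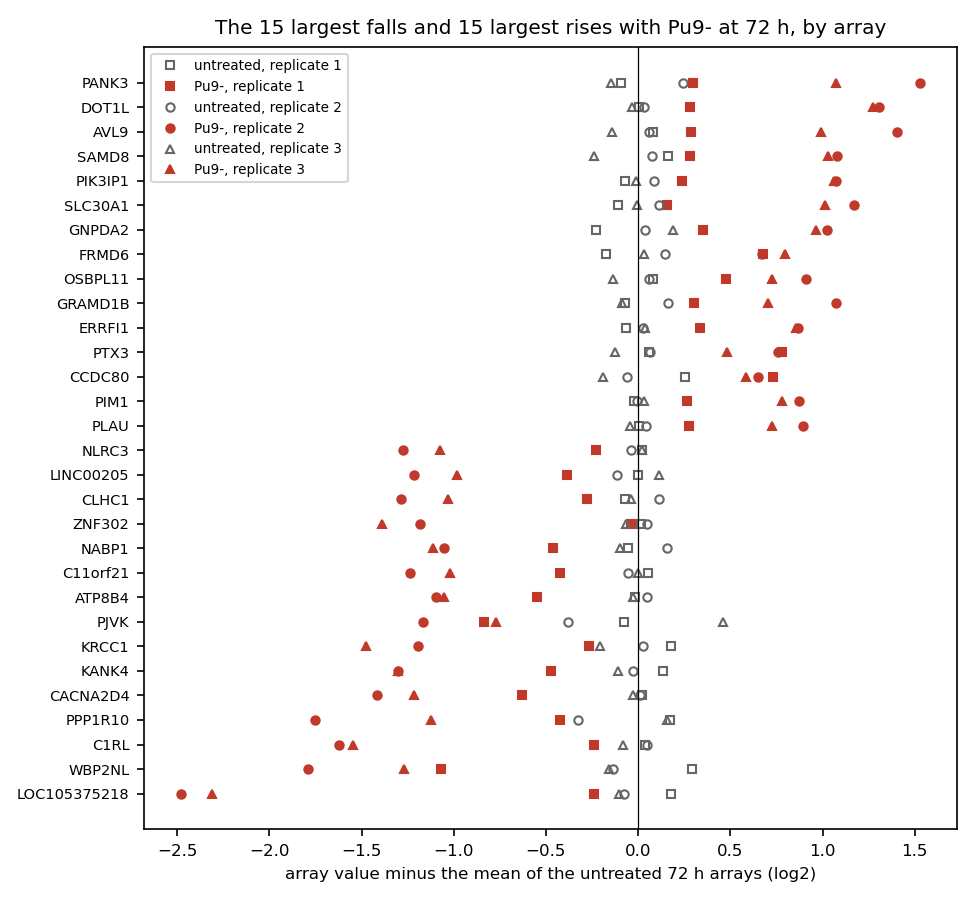
Genes past the test with Pu9- at 72 h, the 15 with the largest rise and the 15 with the largest fall, as the difference of each array from the mean of the untreated 72 h arrays (horizontal axis, log2); open symbols are untreated arrays, filled symbols are Pu9- arrays, and the shape gives the replicate number. Replicate 1 (squares) lies nearest to 0 for most genes, with CCDC80 and PTX3 among the exceptions.

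Genes of the G1/S transition and of DNA replication were among the rises. Of 36 measured members of a list of such genes, 4 passed and were higher (0.452% of all genes did so), none passed lower, 30 lay above 0 (47.7% of all genes) and the median change was 0.20 (-0.01 for all genes). MCM10, a replication initiation factor, was 7.58, 7.34 and 7.33 untreated and 7.84, 7.93 and 7.94 with Pu9- (0.49 ± 0.07, limma adjusted p = 0.00095). CDC6, which loads the replicative helicase at origins, went from 8.67, 8.55 and 8.33 to 9.03, 9.21 and 8.97 (0.55 ± 0.11, limma adjusted p = 0.010). CDC25A, the phosphatase that activates cyclin-dependent kinases at S phase entry, went from 8.29, 8.20 and 8.06 to 8.56, 8.86 and 8.76 (0.54 ± 0.10, limma adjusted p = 0.0056). DTL, which targets the licensing factor CDT1 for destruction, went from 10.00, 9.88 and 9.57 to 10.22, 10.49 and 10.14 (0.47 ± 0.10, limma adjusted p = 0.011).

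In all 4 genes every Pu9- array lay above every untreated array, which follows largely from their passing the test on these arrays. The same order held for 12 of the 36 members, against 7.7% of all genes. E2F1, the transcription factor that drives this group, changed by 0.53 ± 0.14 (limma adjusted p = 0.058) and passed as well with the replicate number as a block. The members that pointed the other way included GINS4 at -0.43 and E2F8 at -0.36, which did not pass. Among 31 genes of G2 and mitosis none passed, 21 lay above 0 and the median was 0.11; with the replicate block TTK and NEK2 passed and were higher.

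G1/S genes are classical targets of E2F factors, so their promoters were searched for 4 spellings of the E2F site, TTTCCCGC, TTTCGCGC, TTTGCCGC and TTTGGCGC, on either strand in the 250 bases before the transcription start (RefSeq, GRCh38.p14). Of the 4 genes above, CDC25A and DTL held a match in that window, and the stretches are shown 5′ to 3′ on the strand of the gene with the match in capitals. The CDC25A stretch lies at chr3:48188433-48188482 on the minus strand and its match starts 44 bases before the gene's start. The DTL stretch lies at chr1:212035719-212035747 on the plus strand, and its match starts 8 bases before the gene's start.
CDC25A: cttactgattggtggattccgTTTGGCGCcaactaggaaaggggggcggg
DTL: aatcagagagcgtgacgtcagTTTGGCGC
Over the G1/S list 13 of 31 genes with a promoter window held a match (41.9%), against 547 of 14425 tested genes (3.79%) and 979 of all 35116 RefSeq windows (2.79%). The list is made of such targets, so that share follows from its choice and says nothing about Pu9-. Among all genes that passed with Pu9-, the share was 5 of 71 rises (7.04%), CDC25A and DTL among them, and 4 of 75 falls (5.33%). The string GGGTGGG, which also occurs in the oligonucleotides, was in 14 of 71 rises (19.7%) and 12 of 75 falls (16%), against 20.2% of tested genes and 18.2% of all windows.

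**Figure D4:**
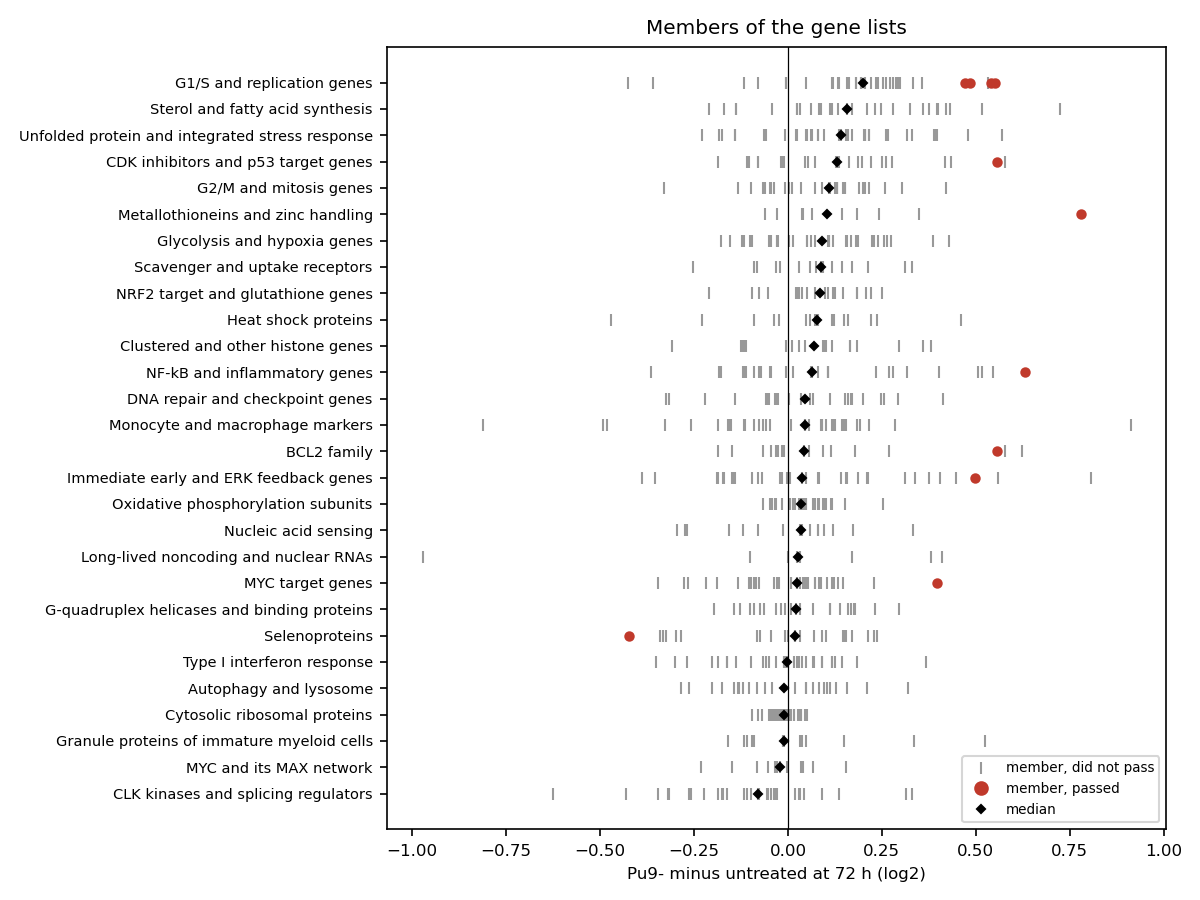
Change with Pu9- at 72 h (horizontal axis, log2) of every measured member of 28 gene lists, with a tick per member that did not pass, a red point per member that passed and a black diamond at the median of the list. The G1/S list has the highest median, 0.20, and the list of CLK kinases and splicing regulators the lowest, -0.08.

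MYC itself showed no detectable difference. Its log2 level was 11.77, 11.74 and 11.74 in the untreated arrays and 11.88, 11.67 and 11.64 with Pu9-, a difference of -0.02 ± 0.11 with a 95% interval from -0.24 to 0.19 (limma adjusted p = 0.97). The groups overlapped, and the sign turned in 5 of 20 alternative fits, none of which called MYC. The 13 measured genes of MYC and its MAX network had a median of -0.02 with none past the test. Of 37 MYC targets in ribosome biogenesis and nucleotide synthesis, PPAT passed and was higher, and the median was 0.02. None of 37 cytosolic ribosomal protein genes passed (median -0.01). Array normalization makes the overall distributions alike, so a change in total RNA per cell is not measured.

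Death and stress genes gave few calls. PMAIP1, the pro-apoptotic BH3-only protein NOXA and a p53 target, went from 8.04, 8.10 and 8.10 to 8.36, 8.78 and 8.77 (0.56 ± 0.11, limma adjusted p = 0.010), and its second probe set rose by 0.58. It was the only gene to pass among 26 CDK inhibitors and p53 targets (median 0.13) and among 17 BCL2 family genes (median 0.04). BBC3 (PUMA), another BH3-only gene, changed by 0.58 ± 0.17 (limma adjusted p = 0.080) and passed with the replicate block. Of 38 unfolded protein response and integrated stress response genes none passed, 30 lay above 0 and the median was 0.14; TRIB3 at 0.39 ± 0.11 (limma adjusted p = 0.066) came nearest and passed with the block.

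The calls among genes of sterol and fatty acid synthesis depended on the first replicate and on the fit, as did the count over all genes. None of 29 passed in the fit over all arrays, 24 lay above 0 and the median was 0.16. HMGCS1, which makes the precursor of mevalonate, changed by 0.73 ± 0.26 (limma adjusted p = 0.17), and EBP, a sterol isomerase, by 0.43 ± 0.12 (limma adjusted p = 0.077). HMGCS1, MSMO1 and EBP passed with the replicate block, where 233 of all 18132 genes passed higher. Without Pu9- replicate 1, 7 members passed, and 486 of all genes passed higher. Every one of the members' calls was a rise. None of the 29 had every Pu9- array above every untreated array (7.7% of all genes did). In 2 of the 29 every Pu9- array lay below (1221 of all genes).

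Of the other lists, SLC30A1 was the only gene past the test among 10 metallothionein and zinc genes; the metallothionein MT1X changed by 0.35 ± 0.14 (limma adjusted p = 0.25) and MT2A by 0.14 ± 0.12 (limma adjusted p = 0.72). PLAU was the only one of 28 NF-kB and inflammatory genes (median 0.06), and PLAUR, its receptor, changed by 0.52 ± 0.14 (limma adjusted p = 0.065) and passed with the replicate block. DUSP4, a phosphatase of MAP kinases, was the only one of 35 immediate early and ERK feedback genes to pass (0.50 ± 0.13, limma adjusted p = 0.044), its groups overlapped, and with the block IER5, KLF6 and SPRY2 passed too. None passed among 33 interferon response genes (median 0.00), 35 markers of monocytes and macrophages (0.04), 17 nucleic acid sensors and their partners (0.03), 14 granule proteins (-0.01), 17 heat shock proteins (0.08), 32 oxidative phosphorylation subunits (0.04) or 23 G-quadruplex helicases and binding proteins (0.02). With the block, MMP9 passed and was higher and LILRB2 passed and was lower among the monocyte and macrophage markers, and CHORDC1 rose among the heat shock proteins. In all, 26 of 34 lists had no member past the test.

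Selenoproteins carry selenium as selenocysteine and act mostly in redox reactions. SELENOH, a nuclear selenoprotein, was 12.15, 12.13 and 12.11 in untreated cells and 11.74, 11.65 and 11.73 with Pu9- (-0.42 ± 0.07, limma adjusted p = 0.0033), with little spread and a second probe set at -0.52. It was the only one of 24 selenoprotein genes to pass (0.507% of all genes fell), and the list median was 0.02. SELENOW stood at 6.51, 6.56 and 6.62 against 6.10, 6.26 and 6.31, a difference of -0.34 ± 0.09 (limma adjusted p = 0.058) that passed with the replicate block (limma adjusted p = 0.030). GPX1, the cytosolic glutathione peroxidase, stood at 12.32, 12.27 and 12.40 against 11.92, 12.02 and 12.16 (-0.30 ± 0.09, limma adjusted p = 0.11). In all 3 genes the Pu9- arrays lay below the untreated ones. Of the 24 selenoprotein genes 3 had that order, as did 1221 of all 18132 genes. In 4 of the 24 every Pu9- array lay above every untreated array, as in 1397 of all genes.

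The same 3 genes had changed by more at the earlier times, each against untreated cells of its own time. SELENOW differed by -1.38 at 24 h and -0.66 at 48 h, SELENOH by -0.62 and -0.59, and GPX1 by -0.66 and -0.79. The test of the change in effect from 24 h to 72 h called SELENOW alone among all genes (0.00552%), with a difference of 1.04 between the effects (limma adjusted p = 4.8e-05) and 1389 genes at an unadjusted p under 0.05. With the replicate block, a pairing that the 24 h arrays do not show, it called 5 genes. Without Pu9- 72 h replicate 1 it called 364. The same test between 48 h and 72 h called 0 genes (0%), with 941 at an unadjusted p under 0.05, and 77 without that array. At 24 h and at 48 h these same 3 genes were the only ones to pass against untreated cells, all lower (0.0165%).

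Of the named genes past the test at 72 h, SELENOH alone passed at 24 h or 48 h as well. WBP2NL differed by -0.20 at 24 h and 0.05 at 48 h, ATP8B4 by -0.03 and -0.10, C1RL by 0.02 and -0.22, and DOT1L by -0.04 and 0.24. Larger values at the earlier times were those of PJVK, at -0.57 and -0.12, PPP1R10, at -0.35 and -0.34, and CACNA2D4, at -0.17 and -0.61. None of these genes passed the test of the change in effect between times, so a difference between times is shown for SELENOW alone.

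Pu9- and Pu27 were compared directly at 72 h, both at 10 µM; Pu9- is the shorter strand and lies within Pu27. A total of 273 genes differed (1.51%), 99 higher (0.546%) and 174 lower (0.96%) with Pu9-. With the arrays shifted to a common median, 116 were higher and 109 lower. Without Pu9- replicate 1, 2 or 3 the count was 729, 45 and 97, and without Pu27 replicate 1 or 2 it was 60 and 174. A fit on the 6 arrays called 15 genes, all lower with Pu9-, and the replicate block over all arrays called 599. In 78 of the 273 genes the Pu9- mean lay between the untreated and the Pu27 mean. Of the 273, 149 passed for Pu27 against untreated cells (5.08% of all genes did) and 12 for Pu9- against untreated, 2 comparisons that share the untreated arrays.

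Members of the G1/S and monocytic lists were lower with Pu9- than with Pu27. CCNE2, a cyclin of the G1/S transition, was 7.43, 7.21 and 6.79 with Pu9- and 9.09, 8.59 and 8.38 with Pu27 (-1.54 ± 0.24, limma adjusted p = 0.00043), and untreated cells had 7.10, 6.81 and 6.45. SUCNR1, a succinate receptor, was 9.09, 8.81 and 8.96 against 10.41, 10.48 and 10.31 (-1.44 ± 0.15, limma adjusted p = 4.8e-07). In both genes every Pu27 array lay above every Pu9- and every untreated array. Of the 36 G1/S genes, 34 were lower with Pu9- than with Pu27, as were 11113 of all 18132 genes, and the median was -0.28 (-0.04 for all genes). Of the 36, 9 passed, all lower (0.96% of all genes did so), among them RRM2, a subunit of ribonucleotide reductase, at -0.79 ± 0.15 (limma adjusted p = 0.0055) and CDC6 at -0.47 ± 0.11 (limma adjusted p = 0.023).

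CDC6 therefore lay between the others in order, with 8.33 to 8.67 untreated, 8.97 to 9.21 with Pu9- and 9.39 to 9.68 with Pu27. CCDC80 had the same order, at 5.85 to 5.99 with Pu9- and 6.85, 7.17 and 7.11 with Pu27 (-1.12 ± 0.16, limma adjusted p = 0.00011). Of 35 monocyte and macrophage markers 7 passed, all lower with Pu9- (0.96% of all genes did so), with a median of -0.21 against -0.04 for all genes. They included CX3CR1, the fractalkine receptor, at -1.25 ± 0.26 (limma adjusted p = 0.0090) and HLA-DRA, a class II antigen-presenting chain, at -0.91 ± 0.13 (limma adjusted p = 0.00011). Of 14 granule proteins 3 passed, all lower (against the same 0.96%), RNASE6 at -1.14 ± 0.24 (limma adjusted p = 0.0097) among them.

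The genes higher with Pu9- than with Pu27 were led by SNORA33, a small nucleolar RNA, at 6.40, 7.36 and 6.75 against 5.51, 5.55 and 6.19 (1.09 ± 0.17, limma adjusted p = 0.00049). CIPC, a repressor of the circadian CLOCK protein, was 6.93, 6.76 and 6.90 against 5.66, 5.93 and 6.41 (0.86 ± 0.14, limma adjusted p = 0.00089), and untreated cells had 6.87, 7.16 and 6.94. FRMD6 differed by 0.77, TRDMT1 (a tRNA methyltransferase) by 0.73 and the kinase CILK1 by 0.72, with limma adjusted p from 0.017 to 0.028. ERRFI1 was also higher with Pu9- (0.45 ± 0.11, limma adjusted p = 0.035). MYC was 11.88, 11.67 and 11.64 with Pu9- and 11.58, 11.52 and 11.48 with Pu27, a difference of 0.20 ± 0.11 that did not pass (limma adjusted p = 0.36).

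Pu9- and Pu5- differed in few genes, most of them mitotic. Of 18132 genes 9 passed (0.0496%), all higher with Pu9-, and 647 had an unadjusted p under 0.05. KIF20A, a kinesin of the mitotic spindle midzone, was 9.44, 9.30 and 9.08 with Pu9- and 8.48, 8.58 and 8.58 with Pu5- (0.72 ± 0.10, limma adjusted p = 0.00036). DLGAP5, a spindle assembly protein, was 9.98, 10.10 and 9.97 against 9.17, 9.50 and 9.53 (0.62 ± 0.09, limma adjusted p = 0.0012). HMMR and KNSTRN, both spindle-associated, differed by 0.52 each and the centromere kinesin CENPE by 0.48, with limma adjusted p from 0.0062 to 0.044. The other 4, named after their values were seen because the count is small, were the anaphase activator CDC20 at 0.48, cyclin CCNB1 at 0.45, the centrosomal kinase NEK2 at 0.44 and DEPDC1B at 0.41.

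In all 9 genes every Pu9- array lay above every Pu5- array, against 3.21% of all genes. The 9 were picked by the test on these same arrays, so that separation follows largely from the choice. Of the 31 G2 and mitosis genes, 31 were higher with Pu9- than with Pu5- and 7 of the 9 belong to that list (median 0.33, against -0.01 for all genes). The G1/S list went the other way without a call. Of its 36 genes, 1 was higher with Pu9- than with Pu5-, as were 8134 of all 18132 genes, and the median was -0.13. None of the 9 passed between Pu9- and untreated cells. KIF20A was 9.38, 9.33 and 9.13 untreated, a difference of -0.01 with a 95% interval from -0.21 to 0.19, and CENPE differed by -0.06 (-0.22 to 0.10). NEK2, which passed with the replicate block, differed by 0.30 (0.12 to 0.48), and in NEK2, CDC20 and DEPDC1B every Pu9- array lay above every untreated array. Between Pu5- and untreated cells all 9 were lower with Pu5-, from -0.73 in KIF20A to -0.14 in NEK2. All but NEK2 and DEPDC1B passed in that comparison. KIF20A, DLGAP5 and CENPE were also higher with Pu9- than with Pu27, by 0.57, 0.42 and 0.33 (limma adjusted p = 0.0014, 0.013 and 0.032). The count of 9 was 30 without Pu9- replicate 1, 6 without replicate 2 or 3, 3 without Pu5- replicate 1 and 4 without Pu5- replicate 3. It was 0 in fits on the 6 arrays or on the 12 arrays of 72 h. MYC differed by -0.01 ± 0.11 between Pu9- and Pu5-, which did not pass.

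**Figure D5:**
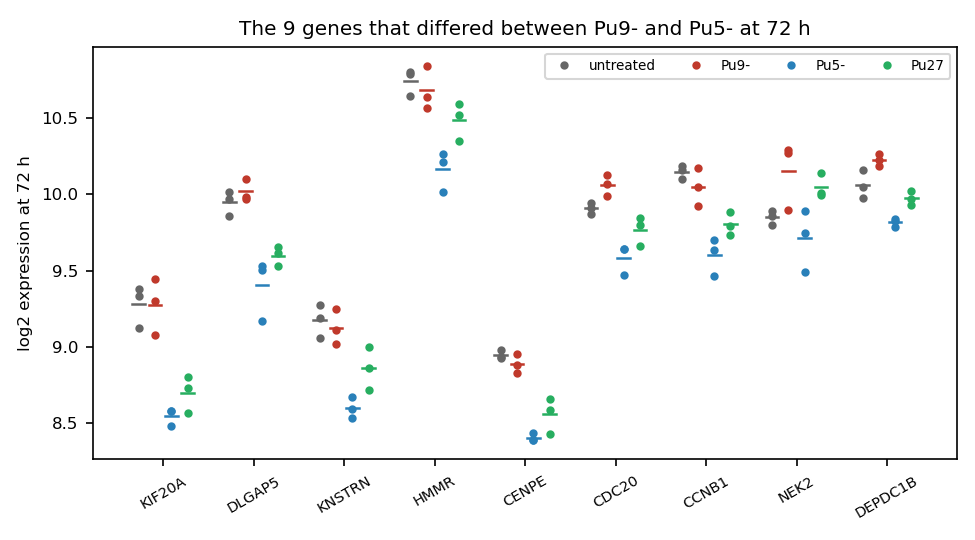
Log2 expression at 72 h (vertical axis) of the 9 genes that differed between Pu9- and Pu5-, with a point per array and a bar at the group mean for untreated, Pu9-, Pu5- and Pu27 cells. The Pu9- points of KIF20A, between 9.08 and 9.44, lie at the untreated level, and the Pu5- points lie between 8.48 and 8.58.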

How the data were processed

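Expression of U937 cells was measured on 39 Affymetrix arrays in 13 groups of 3. The deposited values are log2 levels that the authors made by RMA (background correction, quantile normalization and probe summary), per the submitters' processing notes, which also name limma. Neither version is given in the sources used. Of 49495 deposited probe sets, 49293 were not controls; 44988 had 1 gene symbol in the platform annotation, 1832 had several and 2473 had none. For each of 18132 genes the brightest probe set on average was kept, without a filter on dim genes. RMA compresses changes of dim genes, and array number limits the precision (median SE 0.12).

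The test was that of limma 3.58.1 (R 4.3.3), fitted with 1 mean per group over 39 arrays (26 residual degrees of freedom) and Benjamini-Hochberg adjustment over all genes at 0.05; the procedure was tested on simulated data. Same-numbered arrays deviated together at 72 h (r of 0.203 to 0.384 between Pu9- and untreated, over genes). The number was therefore taken as a pairing from the data, and fits with it as a block are given where they change a call. The same r was 0.227 to 0.436 at 48 h, and -0.017, -0.154 and 0.122 at 24 h. A block over all arrays thus assumes a pairing that the 24 h arrays do not show.

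The genes named were MYC, the 15 largest changes in each direction with a mean log2 of at least 5, the 5 smallest adjusted p in each direction, every 2-fold change, list members that passed, 3 selenoproteins, and the 5 largest per direction of each other comparison. Members and lists (34 lists, 775 of 850 entries measured) were chosen with earlier results of these data known. Other lists and genes described for their place near the threshold, or in a comparison of oligonucleotides, were chosen after their values were seen.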

Additional observations from a re-analysis of the deposited data

Results flagged for a closer look

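The effect of Pu9- on SELENOW differed between times by limma's test of the difference itself: the effect at 72 h minus the effect at 24 h was 1.04, from -1.38 at 24 h to -0.34 at 72 h.

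Probe sets with several or no gene symbol did not enter the values per gene. When every non-control probe set was tested, 31 of these passed among 374 in all, 16 of 1832 with several symbols and 15 of 2473 with none.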

How the results depend on the processing

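Leaving out 1 array at a time gave 4 to 1200 genes for Pu9- against untreated cells at 72 h, 45 to 729 against Pu27, 3 to 30 against Pu5-, 1 to 364 for the change in effect from 24 h and 0 to 77 from 48 h. Leaving out all arrays of a replicate number gave 0 to 1367, 1 to 596, 0 to 9, 0 to 459 and 0 to 139. The fit on the groups compared gave 0, 15 and 0 for the comparisons with untreated cells, Pu27 and Pu5-, and the fit on the 12 arrays of 72 h gave 0, 72 and 0. The replicate block over all arrays gave 459 and 599 against untreated cells and Pu27 and 5 for the change from 24 h; on the groups compared it gave 3 against untreated cells, 3 against Pu27 and 0 against Pu5-. Among the 46 named genes tested against untreated cells with it, it changed the call of SELENOW alone. Every non-control probe set gave 374 and 519. Genes with a mean log2 of at least 5 gave 269 against untreated cells. Array weights gave 1111, 824, 291 for the change from 24 h and 9 for that from 48 h. The probe-set mean gave 2 and a trended prior 3 for the change from 24 h, and a common median 5 against Pu5-. MYC changed sign under the common median (0.0017) and in fits without an array or a replicate number (-0.097 to 0.021), and was never called (adjusted p 0.673 to 0.999). The cause of these differences was not tested.

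No named gene past the test against untreated cells changed sign in any alternative, though several alternatives could not change it. These genes passed in 8 (DUSP4) to 16 (WBP2NL) of 20 alternatives (19 for SAMD8 and FRMD6). With 3 arrays a group, changes under about 0.26 were not called at 72 h.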

Other observations

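Genes of lectin-like receptors that neighbour each other on chromosome 12 in RefSeq, a set chosen after its values were seen, held 5 of the 92 falls, over 20 measured members (0.507% of all genes fell). CLEC12B went from 7.50, 7.27 and 7.53 to 6.89, 6.61 and 6.49 with Pu9- at 72 h (-0.77, limma adjusted p = 0.011), and CLEC2A from 10.72, 10.73 and 10.50 to 10.39, 10.11 and 10.00 (-0.48, limma adjusted p = 0.0091). CLEC12A, an inhibitory receptor of myeloid cells, fell by 0.63 (limma adjusted p = 0.031) with overlapping groups, KLRF1 by 0.61 (limma adjusted p = 0.034) and CLECL1 by 0.40 (limma adjusted p = 0.046). CLEC2D differed by -0.76 (limma adjusted p = 0.052). Of 25 such genes 20 were measured, none passed higher, and their median was 0.00; 10 of the 20 had a mean log2 of at least 5. These genes are related in sequence, and cross-hybridization between relatives was not tested.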
